A study of Mus musculus with 8 samples.

Results

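The complement genes described here are 9 genes of the complement cascade, taken as every gene probe whose name on the array is C1qa, C1qb, C1qc, C2, C3, C4b, Cfp, C3ar1 or C5ar1. This gave 10 probes, 2 for C3 and 1 for each other gene, of 55681 gene probes and 34821 gene names on the array. Expression was measured on 8 one-colour arrays, 4 of resident microglia and 4 of invading macrophages. Both were sorted from the ischemic brains of C57BL/6 bone marrow chimeric mice, which had 30 min of middle cerebral artery occlusion (MCAo, a model of stroke) and 7 d of reperfusion and received no other treatment. The microglia were sorted as GFP + cells and the macrophages by RFP, and replicates 1 to 4 of both groups are the animals A, B, C and D, so that every brain is represented by a pair of samples. Ischemia and transplantation were therefore common to both groups, and no array of uninjured brain was analysed here. The sources used here do not give the drivers of GFP and RFP or the age and sex of the mice.

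Complement is a set of proteins that act in a chain. In the classical pathway C1q binds its target and starts the cleavage of C4 and C2, whose fragments form the enzyme that cleaves C3. C3 fragments mark targets for uptake, while the small fragments C3a and C5a act on receptors of myeloid cells. In the brain microglia are a main source of C1q, and complement is known there for its part in the removal of synapses.

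The probes that carry the comparison of the C1q subunits, of C3 and of properdin are shown first, because each level given for these genes is the signal of that 60-base stretch. All 4 lie within coding sequence on the minus strand of their chromosome, and no base is in capitals because the whole oligonucleotide is the target. In build mm9 they lie at chr4:136452409-136452468 (C1qa), chr4:136436578-136436637 (C1qb), chr17:57343678-57343737 (C3) and chrX:20502742-20502801 (Cfp).
C1qa: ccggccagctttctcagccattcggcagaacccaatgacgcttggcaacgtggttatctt
C1qb: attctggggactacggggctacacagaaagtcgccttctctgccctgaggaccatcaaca
C3: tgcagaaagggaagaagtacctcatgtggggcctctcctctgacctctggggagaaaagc
Cfp: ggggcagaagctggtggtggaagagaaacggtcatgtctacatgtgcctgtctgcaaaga
The other probes lie in mm9 at chr4:136445766-136445825 (C1qc), chr17:34999575-34999634 (C2), chr17:34865328-34865387 (C4b), chr17:57343416-57343475 (the other C3 probe), chr6:122798222-122798281 (C3ar1) and chr7:16832243-16832302 (C5ar1). All 10 accessions matched the same symbol in the RefSeq gene table.

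None of the 9 genes passed the test between macrophages and microglia, in either direction. Of the 9 genes, 8 were bright enough to be tested, and C2 was not. C1qa, C1qc and C4b had lower values in the macrophages of all 4 animals, Cfp had higher values in all 4, and C1qb, C3, C3ar1 and C5ar1 went both ways. A single direction in all 4 animals was found for 34.8% of all 19747 tested genes. Levels are log2 signals relative to the array's 75th percentile, differences are macrophages minus microglia, and adjusted p values come from limma's moderated test, two-sided, with Benjamini-Hochberg adjustment over 29362 tested probes and a threshold of 0.05. By that test 2.28% of all 19747 genes, each taken by its brightest tested probe, were higher in macrophages and 3.94% were lower, beside 0 of the 8 complement genes in each direction. At an unadjusted p under 0.05 there was 1 complement gene, C4b, on the lower side. Of all 19747 genes 23.1% had such a p in either direction, 2167 higher and 2385 lower. With the animal as a block there were 1 higher (Cfp) and 3 lower (C1qa, C1qc and C4b). Of all genes 22.3% then had such a p in either direction, 2124 higher and 2282 lower. Still no complement gene passed after adjustment, where 1.16% of all genes were higher and 2.33% lower. The median difference was -0.39 over the 8 genes and 0.02 over all genes. In none of the 8 were the groups separate, whereas 7.48% of all genes had every macrophage array above every microglia array and 9.46% had every one below. Precision is limited by having 4 arrays a group.

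Macrophage replicate 2, from animal B, stood apart from the other macrophage arrays, and it touches most values below. Across probes, which are not independent replicates, it correlated with the other macrophage arrays at r = 0.840 to 0.872, while those correlated with each other at 0.931 to 0.952 and the microglia arrays at 0.927 to 0.956. All 8 tested complement genes were lower on it than the mean of the other 3 macrophage arrays, 6 of them by at least 1 log2 unit. Of all genes, 64.8% were lower on it and 21.6% by that much, with a median of -0.32. The array also had the highest summed level of 8 endothelial markers (Cldn5, Pecam1, Cdh5, Flt1, Tek, Kdr, Erg, Slco1a4), at 9.14. The other macrophage arrays had 4.45, 5.60 and 3.52 for replicates 1, 3 and 4, and the microglia arrays 1.995 to 2.43. All 8 markers were above background on macrophage replicates 2 and 3, 7 on replicates 1 and 4 (not Cdh5), and 4 on each microglia array, where Cdh5, Erg and Slco1a4 were not. The part of these transcripts in the complement values was not tested, and each tested complement gene is given with and without this array.

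Other markers followed the labels in part. The summed level of 8 microglial markers was 9.52 to 9.87 on the microglia arrays and 7.20 to 8.65 on the macrophage arrays, with the lowest value on macrophage replicate 2. Sall1, a transcription factor of microglia, was not well above background on macrophage replicates 1, 3 and 4, while the other 7 were above it on all arrays. The 8 markers of monocytes and monocyte-derived macrophages (Ccr2, Ly6c1, Fn1, S100a4, Itga4, Plac8, Chil3, Vcan) summed to 3.95 to 5.99 on microglia and 6.75 to 8.45 on macrophages. A sum follows its brightest members. On macrophage replicates 1 to 4 Ly6c1 had 6.53, 7.84, 6.83 and 3.99, highest on replicate 2, as the endothelial sum was. S100a4 had 6.02, 6.38, 6.74 and 5.97 there, and Ccr2 had 3.58, 3.40, 3.70 and 3.15. The 6 border macrophage markers ran from 5.84 to 6.36 on microglia and from 4.83, on replicate 2, to 7.09 on macrophages. Of them 5 to 6 and 4 to 6 were above background (Cd163 and Lyve1 fell short on macrophage replicates 1 and 2). The members went both ways. Cd163 (-4.75), Lyve1 (-2.46), Mrc1 (-1.08) and Stab1 (-0.35) were lower in macrophages, the first 2 with signals at background. F13a1 (0.76), the brightest, and Pf4 (0.31) were higher. Only Cd163 passed (limma adjusted p = 0.00513). The 8 neutrophil markers spanned 3.81 to 5.25 on microglia and 4.18 to 6.81 on macrophages, the last again on replicate 2, with Mpo and Elane not above background on any array. Sums of 5 natural killer cell, 4 dendritic cell and 5 astrocyte markers ran from -0.03 to 0.25, -0.94 to 0.03 and -1.49 to -0.16 on microglia, and from 0.37 to 3.75, 0.52 to 2.94 and 0.33 to 1.08 on macrophages. Of these markers 2 to 3, 1 to 3 and 1 to 3 were above background on a microglia array, and 4 to 5, 3 to 4 and 2 to 4 on a macrophage array. The part of these lists in the complement values was not tested. On single arrays 45.7% to 57.1% of gene probes exceeded background clearly, with none saturated. Slide 1 held microglia replicates 3 and 4 and macrophage replicates 2, 3 and 4, and slide 2 held the other 3 arrays.

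**Figure D1:**
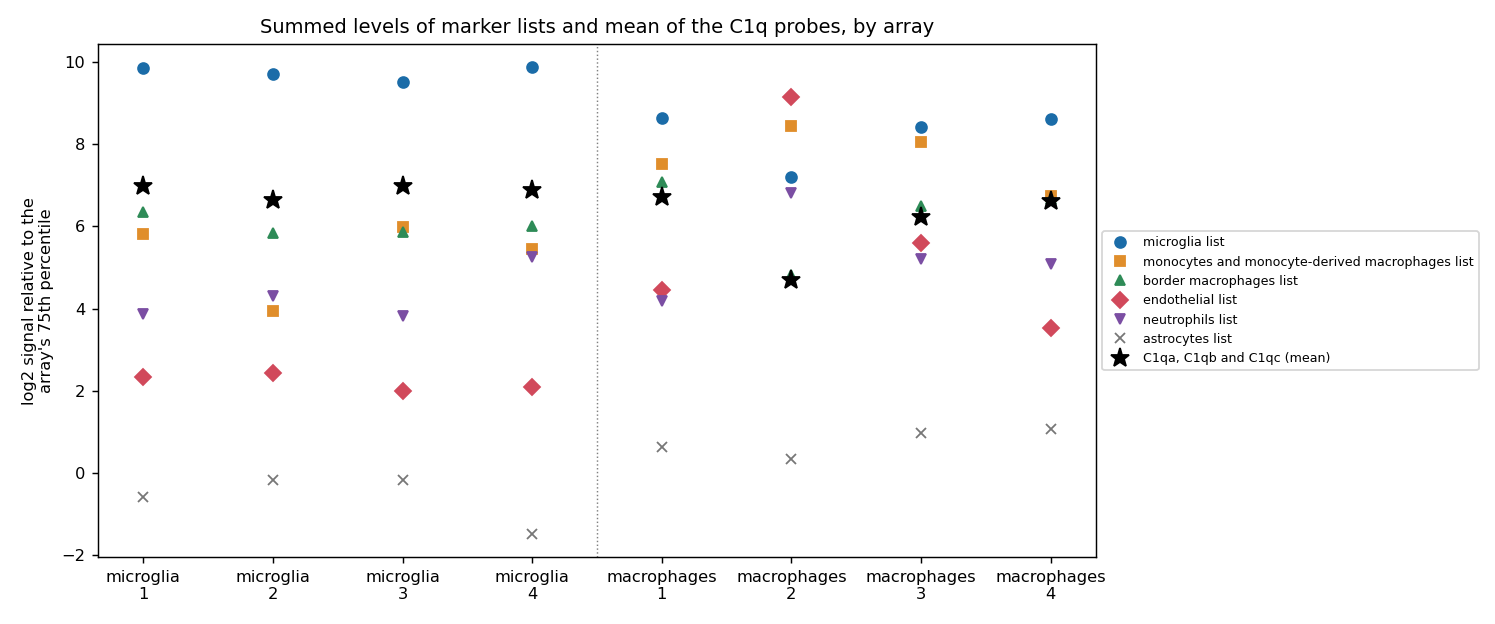
Summed level of each marker list (y axis, log2 scale, set against the 75th percentile of its array) on each of the 8 arrays (x axis), with the mean of the C1qa, C1qb and C1qc levels as black stars; heights are to be compared across arrays within a symbol, not between symbols. Macrophage replicate 2 has the highest endothelial value, 9.14, and the lowest microglial value, 7.20, and its C1q mean lies under that of the other 7 arrays.

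C1qa, C1qb and C1qc code for the A, B and C chains, which join into the C1q molecule. C1qa had levels of 6.99, 6.63, 7.14 and 6.97 on microglia replicates 1 to 4. On macrophage replicates 1 to 4 it had 6.63, 4.55, 6.18 and 6.55. The microglia arrays lay close together and replicate 2 was far below the other macrophages. Only macrophage replicate 1 reached the lowest microglia array, and by a margin that rounding hides. The C1qa mean was 6.93 ± 0.22 in microglia and 5.98 ± 0.97 in macrophages (SD, n = 4 each). The difference was -0.96 (SE 0.46, 95% interval -1.99 to 0.08), 1.94-fold lower in macrophages, and did not pass (limma, adjusted p = 0.247). Without macrophage replicate 2 it was -0.48 (-1.01 to 0.05, adjusted p = 0.195), with all 3 remaining macrophage arrays below the mean of the microglia.

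C1qc, the C chain, went the same way. Its levels were 5.71, 5.22, 5.56 and 5.46 on the microglia arrays and 5.11, 3.20, 4.75 and 5.24 on the macrophage arrays. Macrophage replicate 4 overlapped the lowest microglia array, and the other macrophage arrays lay below all microglia. The means were 5.49 ± 0.21 and 4.58 ± 0.94 (SD, n = 4 each), a difference of -0.91 (SE 0.44, interval -1.92 to 0.10, limma adjusted p = 0.256). It was -0.45 without macrophage replicate 2 (-0.98 to 0.08, adjusted p = 0.218). The C1qc probe is printed 10 times on an array, and its spots agreed to an SD of 0.0358 to 0.0905 log2 units, far less than the spread between arrays of a group.

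C1qb, the B chain, had the smallest difference of the 3. Its microglia levels were 8.26, 8.05, 8.22 and 8.25, the tightest group of any complement probe (SD 0.0951). Its macrophage levels were 8.39, 6.36, 7.76 and 8.04. Macrophage replicate 1 was thus the highest of all 8 arrays and replicate 2 the lowest. The macrophage mean was 7.64 ± 0.89 against 8.19 in microglia (SD, n = 4), a difference of -0.56 (SE 0.42, interval -1.51 to 0.39, limma adjusted p = 0.462). Without macrophage replicate 2 the difference was -0.13 (-0.65 to 0.39, adjusted p = 0.722). In these amplified samples of sorted cells, fewer cells of a type and less RNA per cell cannot be told apart for any of these genes.

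**Figure D2:**
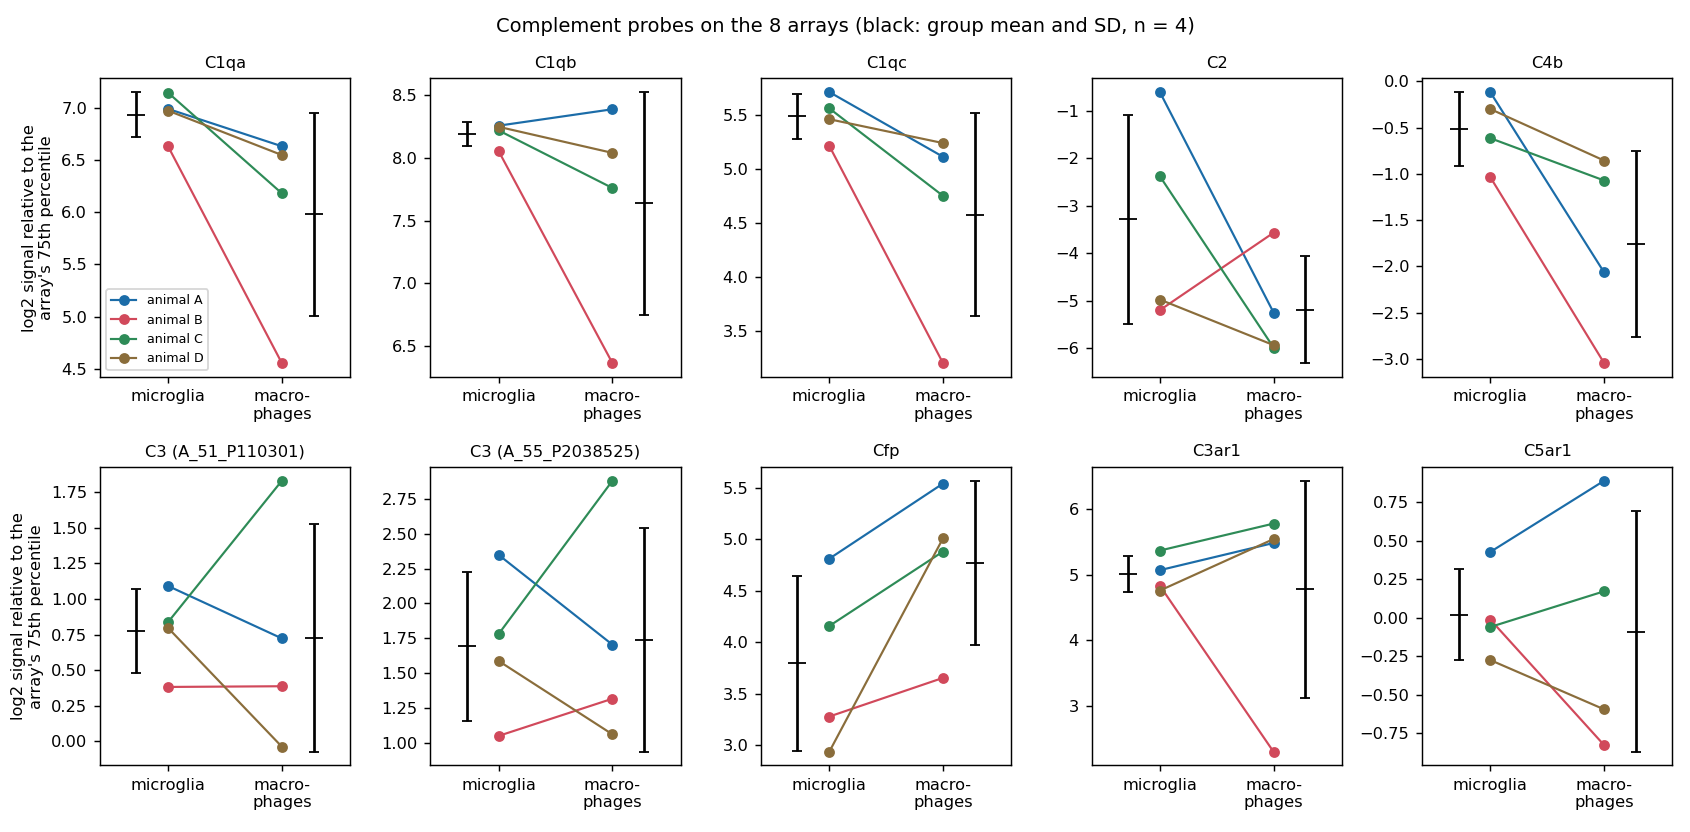
Level of each complement probe (y axis, log2 signal relative to the array's 75th percentile) in microglia and macrophages (x axis), with a line for each animal and the group mean and SD (n = 4) in black; each panel has its own scale. Animal B (red) has the steepest downward line in C1qa, C1qb, C1qc and C3ar1, while Cfp is higher in the macrophages of every animal; the C2 panel also holds signals at background.

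Because a shift of a whole array moves all 3 chains alike, the ratios of the chains within an array were formed, 3 in all, after the levels had been seen. They are given as a description with no test. C1qa over C1qb was -1.27, -1.42, -1.07 and -1.27 (log2) on the microglia arrays and -1.75, -1.81, -1.58 and -1.49 on the macrophage arrays. The groups did not overlap, and the means differed by -0.40. Set against C1qb in the same way, 2.83% of all genes lay lower in every macrophage array than in every microglia array. C1qc over C1qb was -2.54, -2.84, -2.65 and -2.78 on microglia and -3.27, -3.16, -3.01 and -2.80 on macrophages. Here macrophage replicate 4 lay within the microglia range, and the means differed by -0.35. C1qa over C1qc was 1.28, 1.41, 1.58 and 1.51 on microglia and 1.52, 1.35, 1.43 and 1.31 on macrophages, with a difference of -0.04 and groups that overlapped. Macrophage replicate 2, far below the others in level, lay within the range of the other macrophage arrays in C1qc over C1qb and in C1qa over C1qc. In C1qa over C1qb it lay 0.05 below the next array. Such a ratio shows unequal change between probes and not which of them changed.

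**Figure D3:**
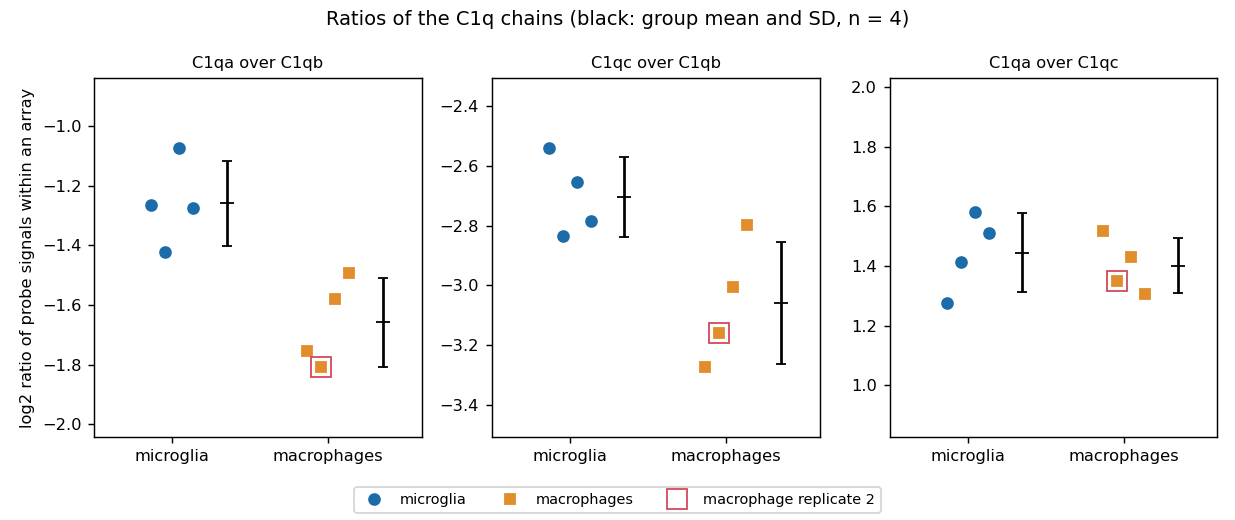
Log2 ratio of the signals of C1q chain probes within each array (y axis; 1 panel a ratio, all panels spanning the same height) for 4 microglia and 4 macrophage arrays (x axis), with group mean and SD in black. The groups are apart only in C1qa over C1qb, where the macrophages run from -1.81 to -1.49 and the microglia from -1.42 to -1.07, and the outlined macrophage replicate 2 lies near the other macrophages in every panel.

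The genes of the 3 chains lie side by side: in the RefSeq gene table C1qb, C1qc and C1qa follow each other on chromosome 4. Their levels varied together over the arrays, with macrophage replicate 2 lowest in all 3, and the cause was not tested. The 250 bases before the start are shown for the pair that the RefSeq promoter table (GRCm38.p6) holds. They are C1qb at chr4:136886201-136886450 and C1qc at chr4:136892915-136893164, both on the minus strand. Capitals mark the core letters bound by PU.1, a transcription factor of myeloid cells, searched as GAGGAA on both strands.
C1qb: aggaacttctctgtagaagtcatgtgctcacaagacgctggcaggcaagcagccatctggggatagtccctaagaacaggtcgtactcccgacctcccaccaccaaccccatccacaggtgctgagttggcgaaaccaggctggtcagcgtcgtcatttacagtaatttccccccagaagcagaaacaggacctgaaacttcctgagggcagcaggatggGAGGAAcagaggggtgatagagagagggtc
C1qc: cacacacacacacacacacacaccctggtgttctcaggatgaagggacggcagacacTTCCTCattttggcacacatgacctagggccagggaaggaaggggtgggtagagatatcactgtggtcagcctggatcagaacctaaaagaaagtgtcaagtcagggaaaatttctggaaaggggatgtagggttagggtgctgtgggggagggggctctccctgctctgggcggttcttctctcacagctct
The match begins 30 bases before the start in C1qb and, on the opposite strand, 193 bases before it in C1qc. Windows of this length held these letters in 23.25% of 32851 promoters, so that such a match is common, and it is no measure of binding. The same search found no match in the promoters of C3, Cfp, C3ar1 and C5ar1. The other motif searched, TGANTCA (AP-1, both strands, in 6.75% of promoters), matched once, in C3ar1. No matches of the different motifs overlapped.

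C4b and C2 supply the fragments of the enzyme that cleaves C3. C4b had levels of -0.12, -1.04, -0.61 and -0.30 on the microglia arrays and -2.07, -3.05, -1.07 and -0.86 on the macrophage arrays. Macrophage replicate 4 overlapped the lowest microglia array, and the other macrophage arrays lay below them all. The means were -0.52 ± 0.40 and -1.76 ± 1.01 (SD, n = 4 each). The C4b difference of -1.24 (SE 0.49, interval -2.36 to -0.13) was 2.37-fold lower in macrophages and was the largest among the tested complement probes, but it did not pass (limma, adjusted p = 0.171). Without macrophage replicate 2 it was -0.81 (adjusted p = 0.176). C4a, whose sequence is nearly the same, has no probe by that name, and the C4b signal could hold both. C2 was well above background on microglia replicates 1 and 3 and macrophage replicate 2, with levels of -0.61, -2.38 and -3.57. On the other 5 arrays it ran from -5.99 to -4.98, not well above background, so that no fold is given.

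C3, the protein on which all routes of complement activation meet, had no shared direction. The brighter C3 probe had levels of 2.35, 1.05, 1.78 and 1.59 on microglia and 1.70, 1.32, 2.88 and 1.06 on macrophages. The highest array was macrophage replicate 3, and the other macrophages lay within the microglia range. The means were 1.69 ± 0.54 and 1.74 ± 0.81 (SD, n = 4 each), a difference of 0.05 (SE 0.45, interval -0.97 to 1.06, limma adjusted p = 0.961). The dimmer C3 probe, printed 10 times with a spot SD of 0.0392 to 0.105, had 1.09, 0.38, 0.84 and 0.80 on microglia and 0.72, 0.39, 1.83 and -0.04 on macrophages. Its difference was -0.05 (interval -0.97 to 0.87, adjusted p = 0.954). The brighter probe differed by 0.19 without macrophage replicate 2 and the dimmer by 0.06, which turned its sign (limma adjusted p = 0.818 and 0.939). The probes had the same sign in each animal: macrophages were lower in A (-0.65 and -0.37) and D (-0.53 and -0.83) and higher in C (1.10 and 0.99), with values of 0.27 and 0.00 in B. Macrophage replicate 2 was 0.57 and 0.45 below the mean of the other macrophages, less than for any other tested complement gene. For C3 the interval of the brighter probe covers changes from about 0.512 to 2.09 times the microglial level.

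Cfp codes for properdin, which stabilises the C3-cleaving enzyme of the alternative pathway. Its levels were 4.81, 3.28, 4.16 and 2.93 on microglia and 5.54, 3.65, 4.88 and 5.01 on macrophages. Each animal's macrophages were above its own microglia, by 0.73, 0.38, 0.72 and 2.08 in A to D, yet the groups overlapped. The means were 3.79 ± 0.85 and 4.77 ± 0.80 (SD, n = 4 each). The Cfp difference was 0.98 (SE 0.52, interval -0.21 to 2.17), 1.97-fold higher in macrophages, and did not pass (limma adjusted p = 0.298, and 0.189 when blocked by animal). Without macrophage replicate 2 it was 1.35 (0.26 to 2.44, limma adjusted p = 0.0973). Macrophage replicate 2 was the lowest macrophage array here too, 1.49 below the mean of the others.

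C3ar1 codes for the receptor of C3a, and its value turned on 1 array. Microglia replicates 1 to 4 had 5.07, 4.83, 5.37 and 4.76, and macrophage replicates 1 to 4 had 5.49, 2.30, 5.78 and 5.55. All macrophage arrays but replicate 2 lay above every microglia array, and replicate 2 lay far below them all. With all arrays the means were 5.01 ± 0.27 and 4.78 ± 1.66 (SD, n = 4 each), a difference of -0.23 (SE 0.73, interval -1.88 to 1.42, limma adjusted p = 0.879). Without replicate 2 the C3ar1 difference was 0.60 (0.06 to 1.13), 1.51-fold higher in macrophages, and did not pass (limma adjusted p = 0.127). C5ar1, the receptor of C5a, had 0.43, -0.01, -0.06 and -0.28 on microglia and 0.89, -0.83, 0.17 and -0.60 on macrophages. The macrophage arrays lay on both sides of the microglia. Its means were 0.02 ± 0.30 and -0.09 ± 0.78, and its difference was -0.11 (SE 0.40, interval -1.01 to 0.79, adjusted p = 0.894), or 0.14 without replicate 2 (adjusted p = 0.833).

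**Figure D4:**
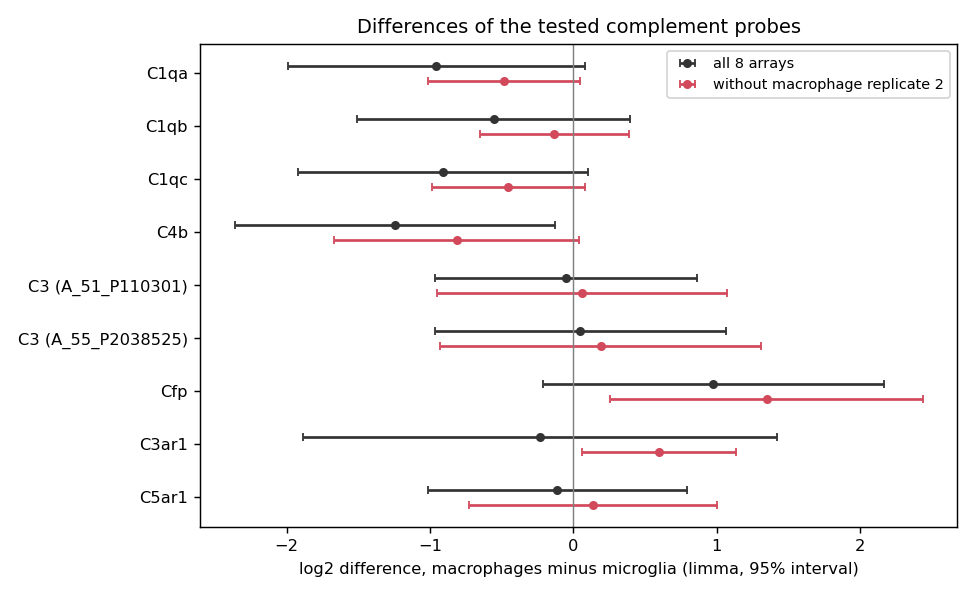
Log2 difference (macrophages minus microglia, x axis) with its 95% interval from limma for each tested complement probe (y axis), with all 8 arrays (black) and without macrophage replicate 2 (red). The intervals come from fits without the animal as a block. With all arrays only the C4b interval excludes 0, and without that array only those of Cfp and C3ar1 do. With all arrays and the animal as a block, not drawn here, the intervals of C1qa, C1qc, C4b and Cfp exclude 0. None passed after adjustment in any of these fits.

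Without macrophage replicate 2 the count of complement genes that passed was still 0 in each direction, where 7.41% of all genes were higher and 6.42% lower. At an unadjusted p under 0.05 there were then 2 higher, Cfp and C3ar1, and 0 lower. Of all genes 31.3% had such a p in either direction, 3625 higher and 2564 lower. The median difference of the 8 genes was 0.00, beside 0.08 over all genes. Within slide 1, which holds that array, C1qa, C1qb and C1qc differed by -1.30, -0.85 and -1.11, and within slide 2 by -0.18, 0.23 and -0.35. Slide 2 holds 1 macrophage array, replicate 1, so each difference within it rests on that array. Cfp differed by 0.97 and 1.498 within the slides and C4b by -1.20 and -1.49. C3ar1 differed by -0.52 and 0.53, C5ar1 by -0.25 and 0.68, and the brighter C3 probe by 0.07 and 0.00 (the dimmer by -0.09 and -0.01). With the slide as a block the smallest adjusted p among the complement probes was that of C4b, 0.223, at a difference of -1.30.

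The other genes of the pathway were taken from a list, of which 40 are reported here, 39 were on the array by name and 20 were bright enough to be tested. Cd93 was higher in macrophages and Masp1 was lower, 1 of 20 in each direction (2.28% and 3.94% of all genes, as above), and the median difference was 0.08 against 0.02 over all genes. By role, 1 of 6 tested genes of the classical and lectin pathways was lower (Masp1), and among receptors 1 of 6 was higher (Cd93). None passed among the 5 tested regulators, the 2 tested genes of the terminal pathway or for Cfb, the 1 tested of the alternative pathway. With the animal as a block the counts were 2 higher and 1 lower, where 1.16% and 2.33% of all genes passed. They were 4 and 1 without macrophage replicate 2, where 7.41% and 6.42% of all genes passed.

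Masp1 codes for a serine protease of the lectin pathway. It had 1.19, -0.23, 0.32 and -0.38 on microglia and -4.98, -6.32, -1.81 and -5.73 on macrophages, where 1 of 4 arrays, replicate 3, was well above background. The fall passed the test (limma adjusted p = 0.0154), and with signals raised to each array's detection floor it was at least 10.9-fold lower in macrophages. The tested probe lies at chr16:23469978-23470037 in mm9. The other 2 Masp1 probes, at chr16:23449609-23449668 and chr16:23452460-23452519, were not well above background on any array, microglia included. The fall is thus that of 1 probe, and which Masp1 transcripts it measures was not tested. Cd93 codes for a surface protein once described as a C1q receptor, which endothelial cells make as well as myeloid cells. It had 1.62, 0.41, 2.03 and 0.60 on microglia and 3.65, 2.503, 4.25 and 3.21 on macrophages, with no overlap. The lowest macrophage value was on replicate 2, the array with the highest endothelial sum, and the part of endothelial transcripts was not tested. Cd93 was 4.71-fold higher in macrophages (2.24, SE 0.49, limma adjusted p = 0.0308) and higher in all 4 animals. It missed the threshold when any 1 of microglia replicates 1, 2 and 4 or macrophage replicates 1, 3 and 4 was left out (0.0529 to 0.0912).

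Some genes of the list passed only in part of the fits. Cfb, factor B of the alternative pathway, had 3.96, 1.26, 3.33 and 2.41 on microglia and 5.56, 2.28, 5.69 and 4.29 on macrophages. It was higher in all 4 animals while the groups overlapped, and the difference of 1.71 passed when blocked by animal (limma adjusted p = 0.0489) and not without the block (0.261). It was 2.44 without macrophage replicate 2 (adjusted p = 0.0507). Without macrophage replicate 2 the 4 genes higher were Cd93, C1ra, C1rb and Itgax. C1rb, a protease of the C1 complex, then differed by 2.14 (limma adjusted p = 0.00351) and its near-identical copy C1ra by 1.32 (0.0284), and transcripts of either may bind the probe of the other. Itgax, a chain of complement receptor 4, differed by 1.14 (adjusted p = 0.0241). With all arrays these 3 did not pass, at 1.51, 0.91 and 0.83 (adjusted p = 0.166, 0.252 and 0.201). The largest differences that did not pass in the other roles were those of Cd59a, an inhibitor of the membrane attack complex, at 2.59 (adjusted p = 0.199), and C8g, a chain of C8, at -1.78 (adjusted p = 0.293). The C8g probe was well above background on 3 microglia arrays and 1 macrophage array, so its difference includes signals at background. With signals raised to each array's detection floor the C8g difference was -1.35. Cd59a had -0.27, 3.98, 1.07 and -0.92 on macrophage replicates 1 to 4, highest on the array with the highest endothelial sum. The part of endothelial transcripts in the Cd59a values was not tested. Without replicate 2 Cd59a differed by 1.59 and C8g by -1.20 (limma adjusted p = 0.227 and 0.414), and Cd46 at -3.04 was then the largest among the regulators. Probes of a gene could disagree. The dimmer C1ra probe gave 0.70 without replicate 2 and did not pass (limma adjusted p = 0.542). For Cd46, a regulator, the brighter probe missed the threshold (-2.44, limma adjusted p = 0.149) and the dimmer passed (-2.11, adjusted p = 0.0478), with 2 and 1 of 4 macrophage arrays above background. The 3 probes of Itgam, a chain of complement receptor 3, gave 0.15, -0.87 and -0.74, and none passed (limma adjusted p = 0.759, 0.335 and 0.350).

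**Figure D5:**
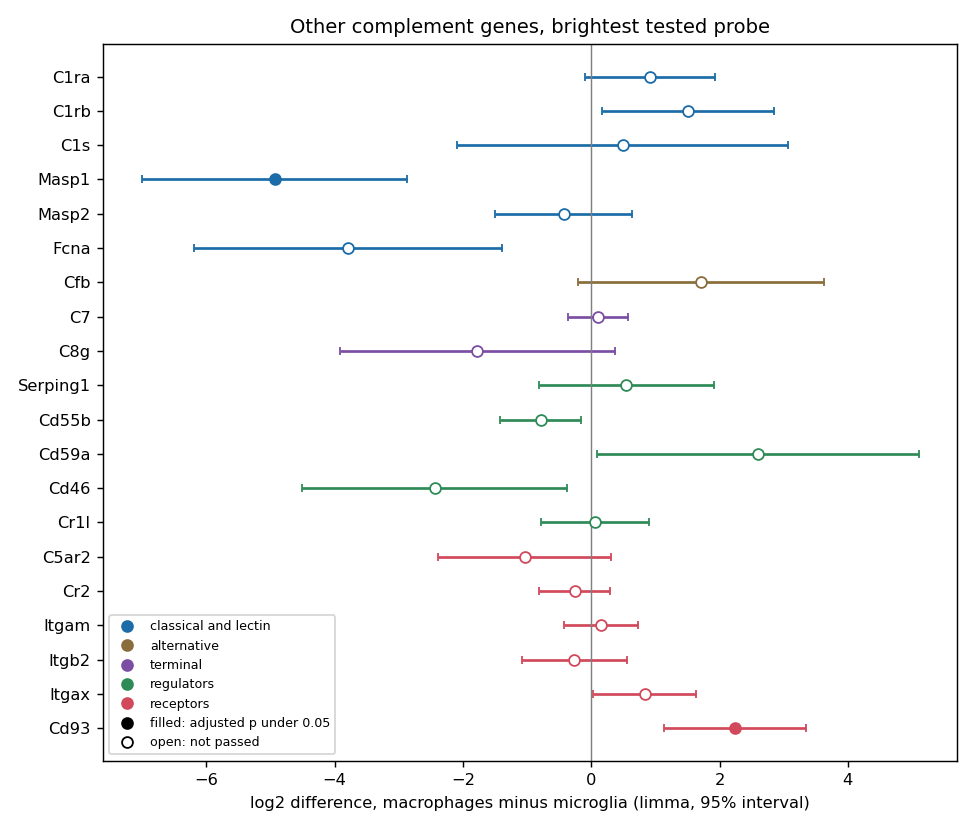
Log2 difference (macrophages minus microglia, x axis) with its 95% interval from limma for the 20 tested genes of the pathway list (y axis), coloured by role; filled points passed at an adjusted p of 0.05. Masp1 is filled on the lower side and Cd93 on the higher side. The Masp1 point and some others, C8g and Cd46 among them, include signals at background. The distance of such a point from 0 is not a measured fold.

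The genes most like the C1q chains over the 8 arrays were sought by Pearson's r with the mean of C1qa, C1qb and C1qc, as a description. They were Il21r (r = 0.994), Plod1 (0.990), Psat1 (0.990), Man2b1 (0.989) and AF251705 (0.989). All 5 were lower on macrophage replicate 2 than on the other macrophages, by 1.505 to 2.67 log2 units, and all points share that array. For deviations from the group means, which leave out the difference between groups, they were Eif5a, Il21r, Ddit3, Gngt2 and Clic1 (0.993 to 0.997), each lower on that array (-2.205 to -1.002 relative to the other macrophages). For C3 the levels most alike were those of Gm9866 (0.956), Nob1 (0.954), Pdcd5 (0.945), Tor3a (0.933) and Ift46 (0.924). In deviations C3 was nearest to Mettl16 (0.975), an intergenic probe (0.965), Gm9866 (0.959), Nob1 (0.954) and Pdcd5 (0.952). None of these genes passed the test between the groups (limma, adjusted p of 0.245 or more).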

How the data were processed

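Total RNA of sorted cells was measured on 8 one-colour Agilent arrays (Cy3). Per the labels' protocols, cDNA made from mRNA went through SuperAmp, a global PCR, before labelling, which can change the proportions of transcripts. Per the file headers, signals come from Agilent Feature Extraction 10.7.3.1 (design in build mm9), and the authors deposited intensity values that were background-subtracted and not normalized between arrays. The authors also deposited a table of log2 values, whose normalization is not given in the sources used here (column medians 4.604 to 4.606, r with the own array 0.996 to 1.000). It served as an alternative.

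Of 62976 spots an array, 3671 controls and spots flagged as outliers were left out. Log2 signals were averaged over a probe's spots, and the 75th percentile over probes was taken off per array. Tested were probes well above background on at least 4 of 8 arrays (29362 of 55681). Differences were fitted without a block with lmFit and eBayes of limma 3.58.1 (R 4.3.3), and Benjamini-Hochberg adjusted over all tested probes. The brightest tested probe stood for a gene. The fit was tested on simulated data. Python 3.11.15 (pandas 2.3.3, numpy 2.4.6) was used for tables.

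Samples are paired by the animal named in the labels. Within animals A to D, deviations from group means correlated at 0.0420, 0.0981, 0.0694 and -0.0186. The highest correlation of each animal's microglia with the macrophages of another animal was 0.0659, -0.037, -0.0073 and 0.0495. In A and D this exceeded the value within the animal, so the pairing rests on the labels. The members and all gene and marker lists were chosen with earlier results of these data known. Named were all members, pathway genes that passed, the pathway gene with the largest difference in each role, and the 5 genes most like the C1q chains or C3. C1ra, C1rb, Itgax, Itgam, Cd46 and the notes on other probes were chosen after their values were seen. Some items of the lists are not reported here. Alternatives changed the scaling, background correction, filter, blocks, value table, probe choice and arrays. A fold from signals raised to the floor uses, per array, the probe's own signal or that of the dimmest probe well above background, whichever is higher. Coordinates of probes are in mm9; RefSeq tables (GRCm38.p6) gave names, neighbours and promoters.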

Additional observations from a re-analysis of the deposited data

Results flagged for a closer look

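C3ar1 on macrophage replicate 2, from animal B, had a level of 2.30 (log2 scale, set against the 75th percentile of its array), far from the 5.49, 5.78 and 5.55 of the other macrophage arrays. Its gap to the nearest of them was 0.915 of the range of the 4 arrays, and it passed Dixon's test at the 95% level. It was the 1 case among 30 groups of 4 arrays examined, and chance alone would give about 1 in 20 groups. The same array had the highest summed level of endothelial markers, 9.14, and its part in the C3ar1 value was not tested.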

How the results depend on the processing

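No complement gene passed in either direction under any of the 24 alternatives, 8 of which left out 1 array. Among the named genes the replicate block changed no other call than that of Cfb. Of the complement genes, 4 had the same sign throughout (C1qa, C1qc, C4b, Cfp). The others turned sign in some alternatives, and the cause was not tested. C1qb was 0.23 within slide 2, which holds 1 macrophage array. The dimmer C3 probe was 0.15 with arrays centred on their median and ranged from -0.42 to 0.20 when 1 array was left out. The brighter was -0.11 with the percentile over probes detected on all arrays, -0.0699 with quantile normalization, -0.0698 with the deposited table and -0.0239 with slide and replicate block, and ranged from -0.33 to 0.28 over left-out arrays. C3ar1 was 0.54 with both blocks and 0.53 within slide 2, with a range of -0.57 to 0.60. C5ar1 was 0.10 under median centring, 0.0834 with the slide as a block, 0.12 with both blocks and 0.68 within slide 2, with a range of -0.44 to 0.14. Leaving out 1 array moved C1qa between -1.17 and -0.48, C1qb between -0.81 and -0.13, C1qc between -1.13 and -0.45, C4b between -1.55 and -0.81 and Cfp between 0.69 and 1.35.

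Of the pathway list 1 gene was higher and 1 was lower. Higher were 2 with the replicate block and 0 with no filter, with the slide block and within each slide. Lower were 2 with normexp and with trend and robust, and 0 with probes above background on all arrays, with both blocks and within each slide. Over left-out arrays the counts were 0 to 4 and 1 to 2. Of all probes 688 were higher and 1206 lower. The counts were 1060 higher under median centring, 1113 with normexp, 406 with no filter, 429 with the slide block and 1057 with trend and robust. They were 352 and 730 with the replicate block, 240 and 596 with both blocks, 17 and 187 within slide 1, and 16 and 74 within slide 2, and 722 were lower with probes above background on all arrays. Left-out arrays gave 305 to 2095 and 676 to 2005, with the highest counts without macrophage replicate 2. Median centring shifted all probes by 0.21 and the percentile over detected probes by -0.16. Of the calls 36.3% were higher, against 53.1% and 25.4% under those scalings and 50.3% with probes above background on all arrays.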
